A study of Mus musculus with 4 samples.

Results

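Transcripts of 10 interleukin receptor genes of T cells were followed in CD8+ T cells, the killer lymphocytes of tumours, that had been enriched from percutaneous tumour grafts in mice. The genes were chosen by symbol and were Il2ra, Il2rb, Il2rg, Il7r, Il21r, Il4ra, Il18r1, Il18rap, Il12rb1 and Il12rb2, 10 of the 36464 gene IDs in the deposited tables. All animals were male wild-type C57BL/6 mice bearing a graft, and the treated group received an antibody against SIGLEC15, a sialic acid-binding lectin of immune cells and tumours, which was injected intraperitoneally for 2 weeks, while the control group received IgG the same way. Grafts were taken on day 19 from 6 mice per treatment, and the cell pellets were mixed in sets of 3, which gave 2 libraries per treatment, called anti-SIGLEC15 replicates 1 and 2 and IgG replicates 1 and 2. The tumour line and the age of the mice are not given in the labels. Every SD and p-value below therefore rests on pools, not on single mice.

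Interleukin receptors of these families are assembled from chains that pair at the cell surface when a cytokine binds. The common gamma chain, encoded by Il2rg, serves the receptors for IL-2, IL-4, IL-7, IL-15 and IL-21 and signals through the kinase JAK3, whereas the partner chain of each receptor binds JAK1. IL-12 acts through a receptor of 2 related chains and TYK2, JAK2 and STAT4, and IL-18 acts through a receptor of the interleukin 1 receptor family and the adaptor MYD88. In CD8+ T cells, IL-2 and IL-15 drive expansion and killing capacity, IL-7 supports naive and memory cells, IL-21 sustains responses to persistent antigen, and IL-12 and IL-18 together raise interferon gamma production.

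Values are given as RPKM, counted reads per kilobase of exon scaled to the library total, so levels can be compared between genes. The libraries held between 14854802 and 16026197 counted reads, and a receptor gene had between 109 and 19728 reads in a library. Cd8a, a defining chain of CD8+ T cells, measured 290.2 and 315 RPKM with anti-SIGLEC15, and 115 and 351 RPKM with IgG, and Cd4 stayed between 2.04 and 6.83 RPKM. The geometric mean of 8 genes of the CD8 lineage (computed on RPKM + 1) was 113 and 117 with anti-SIGLEC15, and 42.5 and 123 with IgG. IgG replicate 1 stood apart from the other libraries. The geometric mean RPKM of 23 T cell identity genes (antigen receptor, CD3 and signalling genes, computed the same way) was 62.5 and 64.8 in the anti-SIGLEC15 libraries, 22.7 in IgG replicate 1 and 69.5 in IgG replicate 2. Of 13 hepatocyte and hepatoma genes, the same mean was 52.9 and 17.3 in anti-SIGLEC15 replicates 1 and 2, and 62.9 and 20.8 in IgG replicates 1 and 2. In such bulk samples, fewer T cells in a pellet and less RNA per T cell cannot be told apart.

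Il2rb was the most abundant in each of the 4 libraries and Il12rb2 the least. By the mean over the 4 libraries, the order was Il2rb (220.0 RPKM), Il2rg (61.0), Il21r (58.6), Il4ra (25.1), Il18r1 (23.5), Il18rap (23.3), Il2ra (7.31), Il7r (5.37), Il12rb1 (5.09) and Il12rb2 (3.30 RPKM). Il2rb stood above Il2rg in 4 of 4 libraries, by 2.90 to 4.17 times. The exons of Il2rg share 728 bases with those of Gm20489 on the same strand. How reads in shared bases were counted is not stated, so the level of Il2rg relative to other genes may be understated. The exons of Il4ra share 571 bases with those of Gm44876 on the opposite strand. If counting ignored strand, the level of Il4ra may be understated too. Il2rg and Il21r changed places in 1 library, as did Il2ra and Il7r, and Il4ra and Il18r1, Il18r1 and Il18rap, and Il7r and Il12rb1 each changed places in 2, so these neighbours did not differ beyond the spread between libraries. The step between Il18rap and Il2ra held in 4 of 4 libraries, at 2.53 to 3.64 times. Among all tested genes, the mean level of Il2rb lay at the percentile 97.9, that of Il7r at 47.9 and that of Il12rb2 at 33.2.

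**Figure D1:**
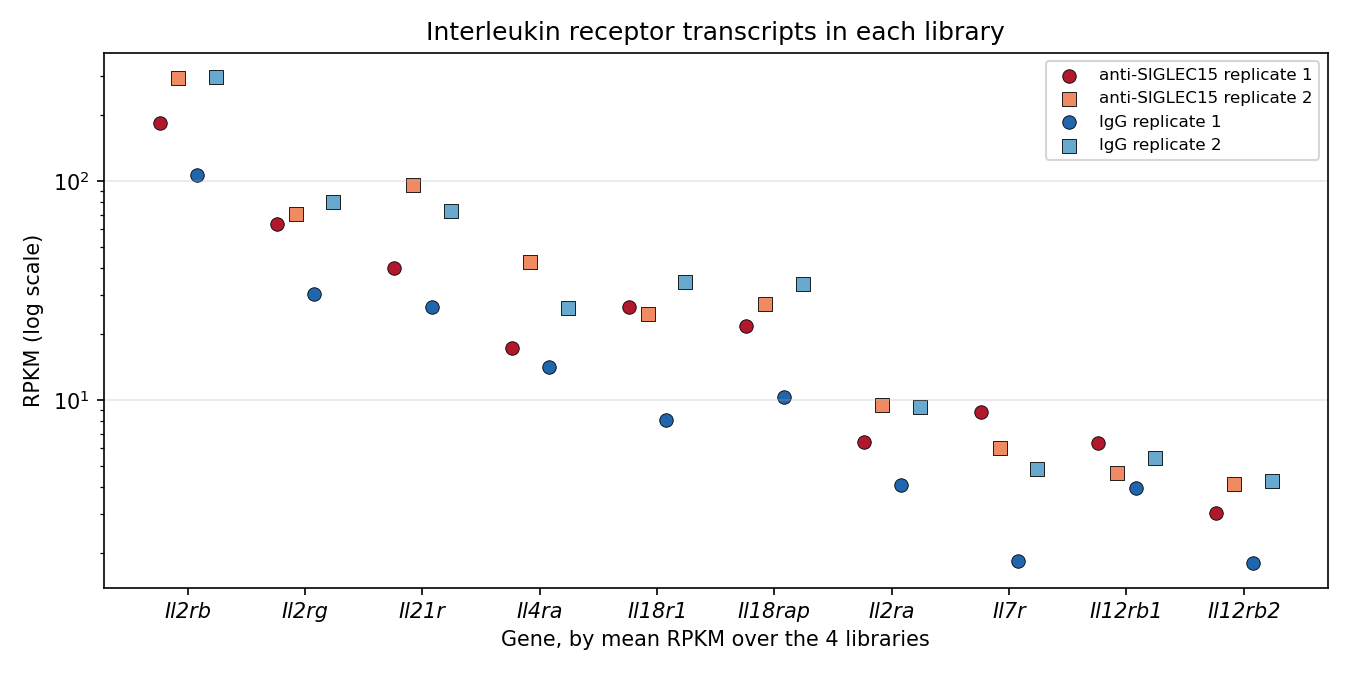
RPKM on a log scale for each of the 10 receptor genes in each library, with anti-SIGLEC15 libraries in red shades, IgG libraries in blue shades, circles for replicate 1 and squares for replicate 2. IgG replicate 1 is the lowest point for all 10 genes, and Il7r is the gene whose anti-SIGLEC15 points both lie above both IgG points.

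No receptor gene passed the test for a difference between the treatments, and for 1 of the 10, Il7r, both anti-SIGLEC15 libraries lay above both IgG libraries. For none did both lie below. All 10 were tested, in a fit of limma (a moderated linear model) to log2(RPKM + 1) across 12484 genes, with a Benjamini-Hochberg adjusted p of 0.05 as threshold. That fit called 0 genes (0.0%), with 146 at an unadjusted p under 0.05, none of them a receptor gene, and limma-voom on recovered reads also called 0. Such a separation upward was seen for 12.1% of the tested genes, and one downward for 6.02%. The mean log2 value of the anti-SIGLEC15 libraries was the higher one for each of the 10 receptor genes. Their median log2 fold change was 0.40, against 0.02 over all tested genes. It was 0.61 for the 23 T cell identity genes and 0.57 for the 8 CD8 lineage genes. IgG replicate 1 was the lowest library for 10 of 10 receptor genes and for 43.4% of all tested genes. IgG replicate 1 was also the lowest for 23 of 23 T cell identity genes and 8 of 8 CD8 lineage genes. Without it the fold change turned negative for 7 of the 10 and was 0.51 for Il7r, 0.054 for Il4ra and 0.0054 for Il12rb1. With 2 libraries against 2, the smallest two-sided exact permutation p for a single value is 0.333.

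Among the chains of the IL-2 receptor, the beta chain and the common gamma chain were abundant and the alpha chain was not. Il2rb (ENSMUSG00000068227, minus strand of chromosome 15, 78479256 to 78495271 in GRCm38) encodes the beta chain that the IL-2 and IL-15 receptors share. It measured 184 and 293 RPKM in the 2 pools with anti-SIGLEC15, against 106 and 297 RPKM in those with IgG. The groups overlapped: both replicate 2 libraries were high, and anti-SIGLEC15 replicate 1 lay between them and IgG replicate 1. The means were 238 ± 77.4 RPKM with anti-SIGLEC15 and 201 ± 135 RPKM with IgG (SD, n = 2 each), and the log2 fold change was 0.38 (SE 0.56, limma adjusted p = 1.00).

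Il2rg (ENSMUSG00000031304, minus strand of chromosome X, 101264378 to 101268255), the common gamma chain, measured 63.3 and 70.3 RPKM with anti-SIGLEC15, and 30.5 and 79.9 RPKM with IgG, each in the order of replicates 1 and 2. The anti-SIGLEC15 pools lay close to each other and inside the range of the IgG pools. The log2 fold change was 0.42 (SE 0.50, limma adjusted p = 1.00). Il2ra (ENSMUSG00000026770, plus strand of chromosome 2, 11642807 to 11693193) encodes CD25, the chain that gives the receptor its high affinity for IL-2 and that regulatory T cells carry at high levels. It measured 6.41 and 9.47 RPKM with anti-SIGLEC15, and 4.08 and 9.29 RPKM with IgG, again with the replicate 2 libraries on top (log2 fold change 0.29, SE 0.44, limma adjusted p = 1.00). Within a library the RPKM of Il2ra was 0.0349 and 0.0323 of that of Il2rb with anti-SIGLEC15, and 0.0384 and 0.0313 of it with IgG. Foxp3, the defining factor of regulatory T cells, measured 0.724 and 0.118 RPKM with anti-SIGLEC15, and 0.177 and 0.451 RPKM with IgG.

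Il7r (ENSMUSG00000003882, minus strand of chromosome 15, 9505788 to 9530176) encodes the alpha chain of the IL-7 receptor, CD127, which naive and memory T cells carry and recently activated effector cells lose. It measured 8.78 and 6.03 RPKM in replicates 1 and 2 with anti-SIGLEC15, against 1.83 and 4.84 RPKM in replicates 1 and 2 with IgG. The groups did not overlap, and the gap between the lower anti-SIGLEC15 library and the higher IgG library was small beside the step between the 2 IgG libraries. In reads, these were 643 and 418 with anti-SIGLEC15 and 137 and 350 with IgG, and the 95% Poisson intervals of the nearest libraries, 5.47 to 6.64 RPKM for the second anti-SIGLEC15 pool and 4.35 to 5.37 RPKM for the second IgG pool, did not meet. These intervals cover counting error only. The means were 7.41 ± 1.94 RPKM with anti-SIGLEC15 and 3.34 ± 2.13 RPKM with IgG (SD, n = 2 each), a ratio of 2.22. The log2 fold change was 1.03 (SE 0.45, unadjusted p = 0.0693, limma adjusted p = 1.00), and the p ranked 197 among the 12484 tested genes. Without IgG replicate 1 the log2 fold change was 0.51, and without anti-SIGLEC15 replicate 1 it was 0.79.

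Il21r and Il4ra, whose genes are neighbours, had similar profiles over the 4 libraries. Some pairs on different chromosomes, such as Il2ra and Il12rb2, had closer profiles. Il21r (ENSMUSG00000030745, plus strand of chromosome 7, 125603429 to 125633570), the IL-21 receptor chain, measured 40.1 and 95.1 RPKM in anti-SIGLEC15 replicates 1 and 2, and 26.6 and 72.6 RPKM in IgG replicates 1 and 2. Il4ra (ENSMUSG00000030748, plus strand of chromosome 7, 125552120 to 125579474), the chain shared by the IL-4 and IL-13 receptors, measured 17.3 and 42.7 RPKM with anti-SIGLEC15, and 14.2 and 26.2 RPKM with IgG. For both genes anti-SIGLEC15 replicate 2 was the highest library and anti-SIGLEC15 replicate 1 lay next to the lowest. The anti-SIGLEC15 pools differed by 2.37 times for Il21r and 2.47 times for Il4ra, while their T cell identity levels were 62.5 and 64.8. Il4ra and Il21r lie 23954 bases apart with no annotated gene between them. The log2 fold changes were 0.48 (SE 0.64) for Il21r and 0.48 (SE 0.54) for Il4ra, each with a limma adjusted p of 1.00, and both were negative without anti-SIGLEC15 replicate 2, at -0.14 and -0.15.

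The 250 bases before and 50 after the start site, from RefSeq on GRCm38.p6, are shown for Il7r, whose groups did not overlap, and for the neighbours Il4ra and Il21r, which had similar profiles over the libraries. Such an entry was found for 8 of the 10 genes, and Il2rb and Il12rb1 are named without one. Capitals mark matches, on either strand, to TTCNNNGAA (a STAT motif, in 8.3% of 32851 promoter windows of this length), TGANTCA (AP-1, 7.81%), the STAT6 motif (TTC and GAA with 4 free bases between them, 6.95%) or an NF-kappaB motif (GGG, 2 free bases, then TTTCC, 1.63%). The motifs were allowed to overlap.
Il7r, chr15:9529827-9530126, minus strand: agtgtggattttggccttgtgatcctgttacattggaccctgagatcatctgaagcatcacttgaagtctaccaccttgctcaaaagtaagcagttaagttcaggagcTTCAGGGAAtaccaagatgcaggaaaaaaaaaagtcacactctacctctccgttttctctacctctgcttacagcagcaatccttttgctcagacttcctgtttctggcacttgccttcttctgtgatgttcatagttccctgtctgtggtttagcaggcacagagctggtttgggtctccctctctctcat
Il4ra, chr7:125552021-125552320, plus strand: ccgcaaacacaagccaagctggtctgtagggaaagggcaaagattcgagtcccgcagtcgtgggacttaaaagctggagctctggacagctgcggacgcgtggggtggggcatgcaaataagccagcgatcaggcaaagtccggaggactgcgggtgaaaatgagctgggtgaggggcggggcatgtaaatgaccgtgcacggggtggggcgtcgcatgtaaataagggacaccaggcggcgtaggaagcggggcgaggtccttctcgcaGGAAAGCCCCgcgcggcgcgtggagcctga
Il21r, chr7:125603179-125603478, plus strand: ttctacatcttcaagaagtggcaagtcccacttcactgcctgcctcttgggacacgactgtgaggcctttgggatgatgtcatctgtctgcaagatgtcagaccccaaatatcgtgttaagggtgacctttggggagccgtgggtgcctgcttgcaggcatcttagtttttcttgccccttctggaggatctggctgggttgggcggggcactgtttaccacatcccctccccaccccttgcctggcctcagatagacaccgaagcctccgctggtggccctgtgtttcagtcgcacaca
The Il7r window held 1 STAT match, the Il4ra window 1 NF-kappaB match and the Il21r window none of the 4. Among the windows not shown, that of Il12rb2 also held 1 STAT match, and 1 of the 3 for Il18r1 held 2. The groups of both genes overlapped. The other Il18r1 windows and that of Il18rap each held 1 STAT6 match, and those of Il2ra and Il2rg held no match. A match is a run of letters and not a measured binding site.

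The IL-18 receptor chains had the widest step between the IgG libraries. Il18r1 (ENSMUSG00000026070, plus strand of chromosome 1, 40465552 to 40500854), the chain that binds IL-18, measured 26.6 and 24.7 RPKM with anti-SIGLEC15, and 8.07 and 34.7 RPKM with IgG. Il18rap (ENSMUSG00000026068, plus strand of chromosome 1, 40515362 to 40551705), the accessory chain needed for signalling, measured 21.7 and 27.5 RPKM with anti-SIGLEC15, and 10.3 and 33.8 RPKM with IgG. Both anti-SIGLEC15 libraries lay inside the range of the IgG libraries for each gene. The IgG pools differed by 4.30 times for Il18r1 and 3.28 times for Il18rap, against 1.08 and 1.27 times between the anti-SIGLEC15 pools. The log2 fold changes were 0.57 (SE 0.68) for Il18r1 and 0.36 (SE 0.58) for Il18rap, each with a limma adjusted p of 1.00. These genes are also neighbours on the same strand, 14507 bases apart with no annotated gene between them.

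The IL-12 receptor chains were the scarcest pair. Il12rb1 (ENSMUSG00000000791, plus strand of chromosome 8, 70808449 to 70821424), which the IL-12 and IL-23 receptors share, measured 6.38 and 4.62 RPKM with anti-SIGLEC15, and 3.94 and 5.42 RPKM with IgG. It varied least of the 10 genes, with its highest library 1.62 times its lowest (log2 fold change 0.19, SE 0.31, limma adjusted p = 1.00). Il12rb2 (ENSMUSG00000018341, minus strand of chromosome 6, 67291318 to 67376188), the chain that recruits STAT4 and that T cells gain on activation, measured 3.04 and 4.13 RPKM with anti-SIGLEC15, and 1.79 and 4.25 RPKM with IgG (log2 fold change 0.25, SE 0.41, limma adjusted p = 1.00). The exons of Il12rb2 share 1519 bases with those of Serbp1 on the opposite strand, an RNA-binding protein gene with a mean of 33.3 RPKM. Whether counting used strand is not stated, so reads of Serbp1 may be part of the Il12rb2 value. Reads in the shared bases may instead be missing from it.

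**Figure D2:**
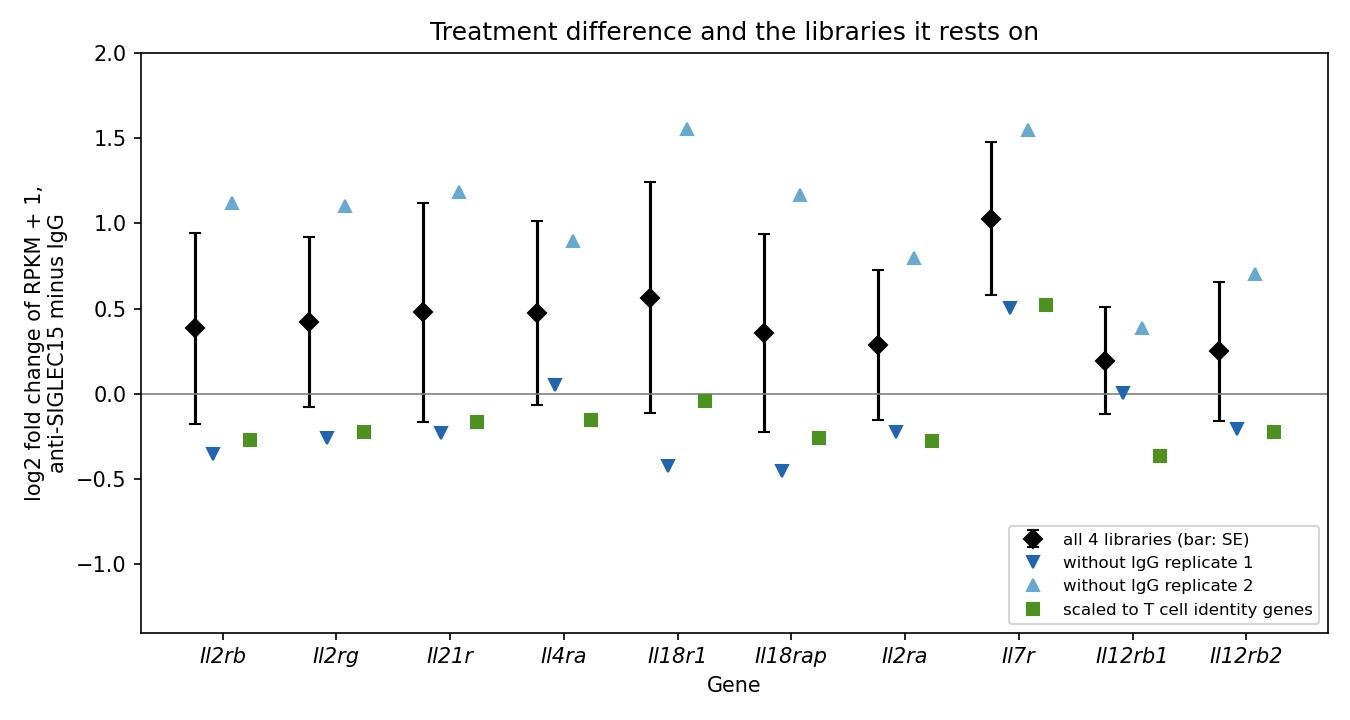
The log2 fold change of RPKM + 1, anti-SIGLEC15 minus IgG, for each receptor gene, with all 4 libraries (black, bars are SE), without IgG replicate 1, without IgG replicate 2, and after scaling to the T cell identity genes. Without IgG replicate 2 all 10 values are positive, without IgG replicate 1 those of 7 genes are negative, and only Il7r stays above 0.5 in each of these settings.

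Where a single IgG library stood for its group, the counts of genes lying apart turned with the library. Without IgG replicate 2, all 10 receptor genes lay higher in both anti-SIGLEC15 libraries than in IgG replicate 1 (45.4% of all tested genes did so) and 0 lower (36.2%), and 7 of them passed the limma test, as did 17.1% of all tested genes. Without IgG replicate 1, only Il7r lay higher in both than in IgG replicate 2 (26.0% of all tested genes), and 5 genes lay lower: Il2rb, Il2rg, Il18r1, Il18rap and Il12rb2 (25.9% of all tested genes). None of the 10 passed the limma test then, while 125 of all tested genes did (1.0%). Without anti-SIGLEC15 replicate 1, 4 genes lay higher (19.2% of all tested genes), Il2ra, Il7r, Il21r and Il4ra, and 0 lower (37.9%). Without anti-SIGLEC15 replicate 2, Il7r and Il12rb1 lay higher (36.8% of all tested genes) and 0 genes lower (8.5%). Both replicate 2 libraries were the 2 highest for 7 of the 10 genes, against 12.5% of all tested genes. The exceptions were Il7r, Il18r1 and Il12rb1. The same held for 10 of 23 T cell identity genes and 5 of 8 CD8 lineage genes, with the replicate 2 libraries on top. The labels do not say that a replicate number marks a shared batch or day.

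Relative to the T cell identity level, the common gamma chain differed little between pools. Il2rg stood at 1.01 and 1.08 times that level in the anti-SIGLEC15 libraries, and at 1.34 and 1.15 times in IgG replicates 1 and 2. Il2rb stood at 2.94 and 4.52 times with anti-SIGLEC15, and at 4.67 and 4.27 times with IgG, so that anti-SIGLEC15 replicate 1 was the lowest library. The same library was the lowest for Il21r, at 0.641 against 1.05 to 1.47 in the other libraries, and for Il4ra, at 0.277 against 0.378 to 0.658. The groups stayed apart for Il7r, at 0.141 and 0.0931 with anti-SIGLEC15, and 0.0806 and 0.0696 with IgG, while the order of the IgG libraries turned. Il12rb1 was highest in IgG replicate 1 on this scale, at 0.173 against 0.0714 to 0.102 in the other libraries. The ratio of the highest to the lowest library was smaller on this scale than on the RPKM scale for 9 of the 10 genes, for example 1.41 against 4.30 for Il18r1 and 2.02 against 4.79 for Il7r. It was larger for Il12rb1, at 2.43 against 1.62.

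After scaling to the T cell identity genes, 1 receptor gene, Il7r, lay higher in both anti-SIGLEC15 libraries (3.44% of all tested genes), and 2, Il2rg and Il18rap, lay lower in both (10.8%). After median-of-ratios scaling these were 1, Il7r (10.6%), and 0 (12.0%). Scaling to the T cell identity genes moved the median log2 fold change of all tested genes to -0.54. As scaled, 9 of the 10 fold changes were negative and that of Il7r was 0.52. Set against that shift, the receptor genes lay between 0.18 for Il12rb1 and 1.06 for Il7r on the log2 scale. Taking off the shift largely undoes the scaling, so these values are no separate result. The fit without scaling gave 0.19 for Il12rb1 and 1.03 for Il7r. The hepatocyte and hepatoma level given above was highest in IgG replicate 1, the library with the lowest receptor values, and its part in them was not tested.

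**Figure D3:**
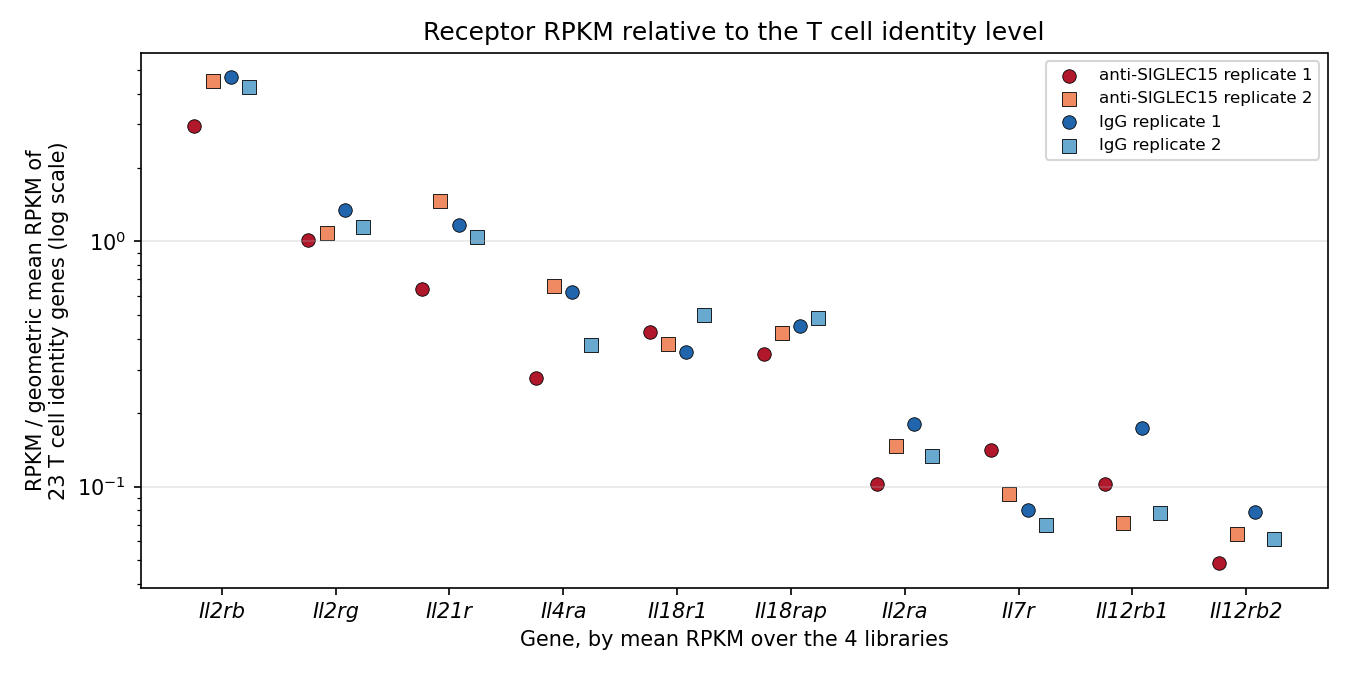
RPKM of each receptor gene divided by the geometric mean RPKM of 23 T cell identity genes in the same library, on a log scale, with the colours and shapes of the plot of levels. The points of a gene lie closer together than on the RPKM scale for 9 of the 10 genes and farther apart for Il12rb1, while anti-SIGLEC15 replicate 1 is the lowest point for 7 genes, all but Il7r, Il18r1 and Il12rb1.

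Ratios between chains of a receptor, taken within a library, did not separate the treatments except for Il7r. That ratio uses the Il7r values given above and is not independent of them. The log2 ratio of Il7r to Il2rg (RPKM + 1) was -2.72 and -3.34 in the anti-SIGLEC15 libraries, and -3.48 and -3.79 in the IgG libraries, a difference of 0.61 with the smallest p the design allows (exact two-sided permutation test, p = 0.333, adjusted p = 1.00 over 7 ratios). The ratio of the IL-18 chains, Il18rap over Il18r1, was -0.28 and 0.15 with anti-SIGLEC15 and 0.32 and -0.04 with IgG, so the groups overlapped. That of Il12rb2 over Il12rb1 was -0.87 and -0.13 with anti-SIGLEC15 and -0.82 and -0.29 with IgG. For Il2rb over Il2rg the 4 libraries lay within 0.52 of each other on the log2 scale. Il21r over Il2rg spanned 1.08 and Il4ra over Il2rg 1.11, and in both the extremes were the 2 anti-SIGLEC15 libraries. For these 6 overlapping ratios, the differences between treatments lay between -0.21 and 0.06, and none had a smaller exact permutation p than 0.667.

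**Figure D4:**
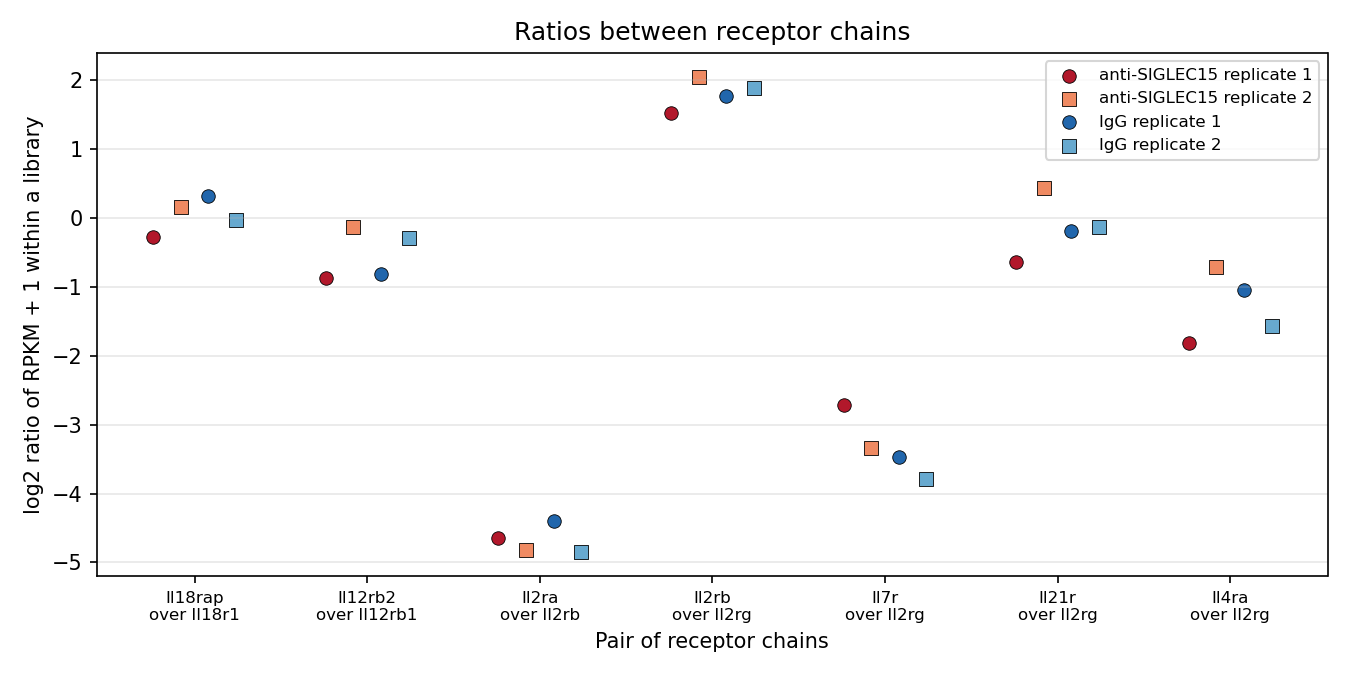
The log2 ratio of RPKM + 1 between 2 receptor chains within each library, for 7 pairs, with the colours and shapes of the plot of levels. Only for Il7r over Il2rg do both anti-SIGLEC15 points lie above both IgG points, and for Il21r and Il4ra over Il2rg the anti-SIGLEC15 points lie at both ends of the range.

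The ligands of these receptors were scarce in the libraries. Of 12 ligand genes, 3 reached the filter of 1 RPKM in 2 libraries, and none passed the test. Il15, which the beta and gamma chains bind on trans-presenting cells, measured 0.986 and 1.82 RPKM with anti-SIGLEC15, and 2.48 and 0.314 RPKM with IgG. Il23a, the subunit particular to IL-23, measured 1.96 and 2.97 RPKM with anti-SIGLEC15, and 5.14 and 1.32 RPKM with IgG, and Il18 measured 0.803 and 0.653 RPKM with anti-SIGLEC15, and 1.39 and 0.688 RPKM with IgG. IgG replicate 1 was the highest library for these 3 ligands, the reverse of its place for the receptors. Il2 measured 0.668 and 0.294 RPKM with anti-SIGLEC15, and 0.0545 and 0.113 RPKM with IgG, below the filter, and Il9 had no reads in any library. Il13, the third ligand tested and chosen for mention with its values known, measured 1.32 and 1.17 RPKM with anti-SIGLEC15, and 0.362 and 0.428 RPKM with IgG (limma adjusted p = 1.00).

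Most of the kinases and STAT factors that carry these signals were lowest in IgG replicate 1, as the receptors were. Of 10 JAK and STAT genes tested, 0 passed the test. In both anti-SIGLEC15 libraries 3 were higher (12.1% of all tested genes) and 0 lower (6.02%). IgG replicate 1 was the lowest library for 7 of the 10, against 43.4% of all tested genes. Jak3, the kinase of the common gamma chain, measured 66.3 and 61.9 RPKM with anti-SIGLEC15, and 28.9 and 80.9 RPKM with IgG. Jak1, the kinase of the partner chains, measured 49.7 and 45.2 RPKM with anti-SIGLEC15, and 23.3 and 51.2 RPKM with IgG. Stat3, a mediator of IL-21 signals, measured 32.3 and 71.5 RPKM with anti-SIGLEC15, and 38.4 and 61.4 RPKM with IgG, with the replicate 2 libraries on top as for Il21r. Jak2 and Stat4, named after their values were seen, were among those that lay higher.

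Inhibitors and targets gave no called gene either. The counts of genes lying higher below stand beside a share of 12.1% of all tested genes. Of 7 tested inhibitors, 3 lay higher in both anti-SIGLEC15 libraries: Ptpn2, Ptpn6 and, named after its values were seen, Socs1. Ptpn6, the phosphatase SHP-1, measured 53.1 and 52.1 RPKM with anti-SIGLEC15, and 24.1 and 51.8 RPKM with IgG. Ptpn2, a phosphatase that acts on JAK and STAT proteins, measured 24.5 and 22.1 RPKM with anti-SIGLEC15, and 21.9 and 21.04 RPKM with IgG. For both phosphatases the lower anti-SIGLEC15 library and the higher IgG library nearly met. Socs3, a feedback inhibitor of STAT3 signals, was highest in IgG replicate 1, with 74.3 and 52.8 RPKM with anti-SIGLEC15, and 115 and 38.8 RPKM with IgG. Of 9 genes of the IL-18 signal chain, 1 lay higher, Rela, with 34.4 and 40.0 RPKM with anti-SIGLEC15, and 33.7 and 31.9 RPKM with IgG. Rela encodes an NF-kappaB subunit. The groups overlapped for the adaptor Tab2, with 31.6 and 30.7 RPKM with anti-SIGLEC15, and 21.6 and 35.2 RPKM with IgG. They also overlapped for the kinase Irak1, with 24.2 and 21.9 RPKM with anti-SIGLEC15, and 19.3 and 27.6 RPKM with IgG. Of 13 target genes, 2 lay higher, Pim1 and Ifng. Pim1, a survival kinase induced by STAT5, measured 146 and 158 RPKM with anti-SIGLEC15, and 111 and 123 RPKM with IgG. Ifng, which encodes interferon gamma, measured 174 and 180.0 RPKM with anti-SIGLEC15, and 59.4 and 170.5 RPKM with IgG. Gzmb, the granzyme B of killer granules and the most abundant target, measured 1474 and 1115 RPKM with anti-SIGLEC15, and 800 and 1334 RPKM with IgG, so its groups overlapped. The median log2 fold changes of the JAK and STAT, inhibitor, IL-18 chain and target lists were 0.38, 0.11, 0.15 and 0.31.

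Some interleukin receptor chains outside the set of 10 reached levels above that of Il4ra. Of 21 such genes, 11 were tested and 0 passed, with a median log2 fold change of 0.21. In both anti-SIGLEC15 libraries 1 of the 11 was higher (12.1% of all tested genes) and 0 lower (6.02%). Crlf2, the TSLP receptor chain, measured 47.8 and 57.5 RPKM with anti-SIGLEC15, and 28.5 and 64.6 RPKM with IgG. Il10ra, the IL-10 receptor chain, measured 42.1 and 54.2 RPKM with anti-SIGLEC15, and 17.8 and 54.9 RPKM with IgG. Il1r2, the decoy receptor for interleukin 1, had its lowest library elsewhere, with 28.7 and 57.7 RPKM with anti-SIGLEC15, and 51.7 and 65.1 RPKM with IgG. The gene that lay higher was Il17ra, named after its values were seen.

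The libraries also held transcripts from marker lists of other cells, some of which carry these receptors. Macrophages and neutrophils express Il4ra, and innate lymphocytes express Il18r1, Il12rb2 and Il2rb. The summed RPKM of 8 neutrophil genes was 215 and 366 with anti-SIGLEC15, and 845 and 68.0 with IgG. Its largest part was S100a9, at 149 and 245 RPKM with anti-SIGLEC15, and 579 and 46.7 RPKM with IgG. The summed RPKM of 13 macrophage and monocyte genes was 249 and 223 with anti-SIGLEC15, and 163 and 176 with IgG. Its largest parts were Ly6c2, which T cells also express, Cd14 and Cd68. Ly6c2 measured 194 and 142 RPKM with anti-SIGLEC15, and 52.9 and 135 RPKM with IgG. Cd14, a monocyte and neutrophil surface protein, measured 22.0 and 39.3 RPKM with anti-SIGLEC15, and 65.0 and 8.90 RPKM with IgG, and Cd68 lay between 24.5 and 31.0 RPKM. Lyz2, a lysozyme of myeloid cells, lay between 1.62 and 8.16 RPKM and, like Cd14, was highest in IgG replicate 1. Of the 13 genes, 4 stayed under 1 RPKM in each library, among them the macrophage genes Adgre1 (at most 0.154 RPKM) and Fcgr1 (at most 0.078 RPKM). For 8 natural killer cell genes the sums were 99.3 and 144 with anti-SIGLEC15, and 110.0 and 89.7 with IgG. They came mainly from Klre1, Klrk1, Tyrobp and Fcer1g, and CD8+ T cells also express Klrk1, which encodes the receptor NKG2D. Klre1 ranged from 9.25 to 37.6 RPKM and Klrk1 from 12.0 to 39.3 RPKM, both lowest in IgG replicate 1. Tyrobp, an adaptor that myeloid cells share, ranged from 5.32 to 58.2 RPKM and Fcer1g from 10.7 to 30.1 RPKM, both highest in IgG replicate 1. The other 4 of the 8 genes stayed under 1 RPKM in each library, among them Ncr1 (at most 0.372 RPKM) and Klrb1c (at most 0.732 RPKM). Of 7 mast cell and type 2 innate genes, Fcer1a and Ms4a2 had no reads, and the list summed to between 2.56 and 6.19 RPKM. For 9 genes of CD4 and regulatory T cells, which activated CD8+ T cells share in part, the sums were 235 and 333 with anti-SIGLEC15, and 163 and 371 with IgG. They were lowest in IgG replicate 1, as were all 10 receptor genes. For 7 B cell and plasma cell genes they were 13.0 and 7.76 with anti-SIGLEC15, and 21.5 and 7.03 with IgG. Their largest part was Sdc1, from 4.77 to 20.7 RPKM and highest in IgG replicate 1, as was the hepatocyte and hepatoma level. Which cells the Sdc1 reads came from was not tested. Of these 7 genes, 5 stayed under 1 RPKM in each library, among them Ms4a1 (at most 0.0515 RPKM). For 7 dendritic cell genes they were 43.6 and 56.9 with anti-SIGLEC15, and 30.0 and 62.5 with IgG. Their largest part was Ccr7, at 29.1 and 49.5 RPKM with anti-SIGLEC15, and 27.4 and 56.5 RPKM with IgG. Of these 7 genes, 3 stayed under 1 RPKM in each library: Flt3 (at most 0.351 RPKM), Clec9a (at most 0.213 RPKM) and Siglech (at most 0.188 RPKM). For 10 endothelial and fibroblast genes the sums were 5.16 and 4.53 with anti-SIGLEC15, and 4.75 and 3.90 with IgG. The part of these cells in the receptor values was not tested.

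The genes whose pattern across the 4 libraries was most like that of the receptors were Eif2s3y and Pld3, followed by the T cell gene Cd3g. Likeness was the root mean square difference between log2(RPKM + 1) values, each centred on its own mean, and the median profile of the 10 receptors, over 5892 protein-coding genes with a mean of at least 5 RPKM. The 5 nearest were Eif2s3y at 0.05, Pld3 at 0.06, Cd3g at 0.06, Lpxn at 0.06 and Sit1 at 0.07. Eif2s3y measured 15.8 and 20.2 RPKM with anti-SIGLEC15, and 8.19 and 21.1 RPKM with IgG. Pld3 measured 61.7 and 81.7 RPKM with anti-SIGLEC15, and 34.1 and 89.0 RPKM with IgG. Cd3g, a CD3 chain, measured 242 and 295 RPKM with anti-SIGLEC15, and 121 and 313 RPKM with IgG. Among the receptors themselves Il2rg lay nearest to the median profile, at 0.08, and Il7r and Il12rb1 farthest, each at 0.44. The closest pair was Il2ra and Il12rb2, at 0.07. Il21r and Il4ra were each other's nearest, at 0.20, with Il2rb as close to Il21r (0.20). With 4 libraries many genes come this close, and 29 lay within 0.1 of the median profile.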

How the data were processed

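Per the labels' protocols, bead-selected RNA of the enriched T cells was run on a DNBSEQ-G50 sequencer. The deposited tables name no unit. The deposited values were taken as RPKM of the authors, because each multiplied by the GENCODE M21 exon length of its gene was a whole multiple of 1 step per library, within 0.02, for 98.9% to 99.0% of genes with under 1000 reads. Per the submitters' processing notes, the build was GRCm38 (mm10). The choice of aligner, counter and strand setting was not given in the sources used here. Symbols and coordinates came from GENCODE M21 for 36386 of 36464 IDs.

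The main test was limma 3.58.1 in R 4.3.3, with trend and robust shrinkage, on log2(RPKM + 1) for the 12484 genes reaching 1 RPKM in 2 or more libraries, with Benjamini-Hochberg adjustment over all of them. A fold change on this scale understates low genes. A test for counts had been the plan had the files held counts. Receptor chain ratios were compared by exact permutation. The 10 genes, the 6 pathway and 11 marker lists and the tests were chosen with earlier results of these data known. The 3 most abundant genes of a pathway list were named, and a gene without reads could be named as such. Others are marked as named after their values were seen. Alternatives were scaling by median of ratios or by the T cell list, a pseudocount of 0.1, no filter, limma-voom on recovered reads (at least 10 reads), leaving out each library, and a replicate block. The fit was tested on simulated reads. Other tools were matplotlib 3.10.9, scipy 1.17.1, numpy 2.4.6 and pandas 2.3.3 in Python 3.11.15.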

Additional observations from a re-analysis of the deposited data

How the results depend on the processing

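The number of genes called was 0 in each of the alternatives with all 4 libraries and ran from 0 to 2129 when a library was left out (125 without IgG replicate 1, 2129 without IgG replicate 2). The lone library of a group was then assumed to vary like the other group. Over 100 combinations of receptor gene and alternative, the sign of the log2 fold change was kept in 81 and turned in 19. T cell list scaling gave -0.28 for Il2ra, -0.27 for Il2rb, -0.22 for Il2rg, -0.16 for Il21r, -0.15 for Il4ra, -0.044 for Il18r1, -0.26 for Il18rap, -0.36 for Il12rb1 and -0.23 for Il12rb2, and by its construction it divides by genes that were lowest in IgG replicate 1. The other turns came from leaving out a library, and the cause was not tested. The fold changes without 1 library ran from -0.22 to 0.80 for Il2ra, -0.35 to 1.12 for Il2rb, -0.26 to 1.10 for Il2rg, 0.51 to 1.55 for Il7r, -0.23 to 1.18 for Il21r, -0.15 to 1.10 for Il4ra, -0.42 to 1.55 for Il18r1, -0.45 to 1.17 for Il18rap, -0.0011 to 0.39 for Il12rb1 and -0.20 to 0.71 for Il12rb2. The 7 receptor genes called in any alternative were called without IgG replicate 2 alone, at adjusted p from 0.000172 to 0.0483 in limma. The count of receptor genes lying higher in both anti-SIGLEC15 libraries ran from 1 to 10 when a library was left out, an alternative added after the data were seen, and the count lying lower ran from 0 to 5 and was 2 with T cell list scaling. Differences in log2 chain ratio without 1 library ran from -0.42 to 0.011 for Il18rap over Il18r1, -0.31 to 0.42 for Il12rb2 over Il12rb1, -0.33 to 0.13 for Il2ra over Il2rb, -0.30 to 0.22 for Il2rb over Il2rg, 0.29 to 0.92 for Il7r over Il2rg, -0.48 to 0.59 for Il21r over Il2rg and -0.50 to 0.61 for Il4ra over Il2rg. With the replicate block, limma called 0 genes (303 at an unadjusted p under 0.05), and no receptor call changed. Over 12484 genes, the deviations of same-numbered libraries correlated at 0.33, a hint from 2 pairs and not a pairing given by the labels. Depth limits Il12rb2 and Il7r most, with 109 and 137 reads in IgG replicate 1.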
